A study of Mus musculus with 15 samples.

Results

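The genes described here are 10 genes of the transforming growth factor beta (TGF-β) and activin pathway in the mouse ear: the TGF-β ligands *Tgfb1*, *Tgfb2* and *Tgfb3*, the activin subunits *Inhba* and *Inhbb*, the TGF-β receptors *Tgfbr1* and *Tgfbr2*, and the inhibitors *Fst*, *Smad7* and *Skil*. They were chosen by name, with no threshold on their measured values but with earlier results of these data known, and each symbol matched 1 of the 21110 genes in the deposited tables, so the set is 10 of 21110 genes. Expression was given as FPKM (fragments per kilobase of transcript, scaled to the mapped reads of the library), so levels of different genes can be set side by side. All mice were of the C57BL/6 strain. There were 4 wild type mice and 4 *Socs3* cKO mice at 2 weeks after birth, and 3 wild type mice and 4 *Socs3* cKO mice at 10 weeks, with 1 library per mouse. In *Socs3* cKO mice, *Socs3*, which encodes an inhibitor of STAT3 signaling, is deleted by a system specific to keratin 5, so the deletion is meant for basal keratinocytes and not for other cells of the ear. Whether the wild type mice carried a floxed allele or a Cre transgene is not given in the sources used here. Whole ear samples gave the RNA, although the labels name keratinocytes as the source.

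TGF-β ligands are secreted in a latent form, are released by integrins and proteases, and bring together a type II and a type I receptor kinase that phosphorylates SMAD2 and SMAD3. Activins are dimers of inhibin beta subunits that signal to the same SMADs through their own receptors, and follistatin, the product of *Fst*, binds and neutralizes them. In skin, TGF-β restrains keratinocyte growth and drives matrix production by fibroblasts, and activin A, the dimer of *Inhba* products, is best known for its rise in wounds.

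In 2-week-old mice, *Socs3* cKO ears had lower levels of the ligand genes *Inhbb*, *Tgfb1*, *Tgfb2* and *Tgfb3* and of the inhibitors *Smad7* and *Fst* in every mouse. Over all genes tested, 33.2% were likewise lower without overlap between the genotypes, and 7.19% were called lower. Among the genes named, *Inhbb* passed the test with a log2(FC) of -2.22. That call was lost in 6 of 8 fits with 1 mouse left out and with no filter on low values. It was also lost with the replicate number added to the fit and with the GC trend removed (-0.82). At 10 weeks *Skil*, *Tgfbr2*, *Tgfbr1* and *Fst* were up-regulated in *Socs3* cKO, by 4.32-fold, 2.46-fold, 2.17-fold and 2.01-fold, where 12.5% of all genes were called higher. *Tgfbr1* and *Fst* fell short of a log2(FC) of 1 once the libraries were rescaled. With the GC trend removed *Tgfbr2* (0.81), *Tgfbr1* (0.60) and *Fst* (0.97) all fell short of it, and *Skil* was called. With 1 mouse left out, *Fst* was called in 2 of 7 fits and *Tgfbr1* in 4 of 7. Here a gene passed, and was called up- or down-regulated, at an adjusted p below 0.01 and a |log2(FC)| of at least 1 in limma on log2(FPKM + 0.1), among genes that reached an FPKM of 1 in 3 or more of the mice fitted. The genotype difference itself differed between the ages for 8 of the 9 genes tested, against 25.6% of all genes. With single mice left out, this count was 4 to 9. *Inhba*, which reached an FPKM of 1 in 2 of the 15 mice, was too low to be tested.

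The upstream sequences of the members that the results turn on are shown for context. RefSeq entries of GRCm38.p6 were found for 6 of the 10 genes and were not found for *Tgfb3*, *Fst*, *Smad7* and *Skil*. The 250 bases before the annotated start are printed 5′ to 3′ on the strand of the gene for *Inhbb* (chr1:119422249-119422498, minus strand), *Tgfb1* (chr7:25686752-25687001, plus strand), *Tgfb2* (chr1:186705990-186706239, minus strand) and *Tgfbr2* (chr9:116175364-116175613, minus strand). The first pair is from members with the lowest levels in 2-week-old *Socs3* cKO relative to the wild type, *Tgfb2* is the ligand gene with matches, and *Tgfbr2* is a receptor gene that was up-regulated at 10 weeks. Capitals mark the letters CAGAC, the SMAD box, found on either strand.
Inhbb: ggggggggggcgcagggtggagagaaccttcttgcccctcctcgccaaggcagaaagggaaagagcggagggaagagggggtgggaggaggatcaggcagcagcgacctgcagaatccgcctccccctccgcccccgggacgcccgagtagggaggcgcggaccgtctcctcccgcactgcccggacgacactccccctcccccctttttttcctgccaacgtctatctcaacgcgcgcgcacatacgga
Tgfb1: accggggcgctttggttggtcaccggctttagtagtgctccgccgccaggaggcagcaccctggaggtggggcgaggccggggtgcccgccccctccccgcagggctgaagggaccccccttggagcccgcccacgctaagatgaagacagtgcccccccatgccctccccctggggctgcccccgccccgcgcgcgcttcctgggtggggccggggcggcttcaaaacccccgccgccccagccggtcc
Tgfb2: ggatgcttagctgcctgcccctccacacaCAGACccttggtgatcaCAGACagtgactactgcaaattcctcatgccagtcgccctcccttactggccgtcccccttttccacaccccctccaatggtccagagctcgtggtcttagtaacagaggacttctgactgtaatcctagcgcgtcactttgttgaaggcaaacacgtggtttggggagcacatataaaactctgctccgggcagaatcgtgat
Tgfbr2: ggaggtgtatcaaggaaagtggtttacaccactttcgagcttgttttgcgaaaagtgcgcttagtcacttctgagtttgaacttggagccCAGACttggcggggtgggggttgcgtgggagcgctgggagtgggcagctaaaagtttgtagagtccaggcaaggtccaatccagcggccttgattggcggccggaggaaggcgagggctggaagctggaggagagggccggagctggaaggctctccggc
The *Tgfb2* window held 2 matches to the SMAD box and the *Tgfbr2* window held 1, while those of *Inhbb* and *Tgfb1* held 0. Of 32851 mouse promoter windows of this length, 42.2% held at least 1 match on either strand, so a match is common. None of the entries of the 6 genes held the AP-1 letters TGANTCA or the STAT letters TTCNNNGAA, which 6.75% and 7.02% of all windows held on either strand. None of these motifs contains another, although their ends can overlap. GC made up 68.0% of the *Inhbb* window, 75.2% of that of *Tgfb1*, 53.6% of that of *Tgfb2* and 58.4% of that of *Tgfbr2*.

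Before the results, facts of the libraries that touch them are given. The sum of FPKM over all genes was 436293 to 671904 per mouse, and the mapped reads, estimated from small values above 0, were 11500000 to 16700000. Wild type mice at 10 weeks had 1414 to 3176 genes at 0, against 4044 to 4423 in the other groups. *Socs3* cKO replicate 1 at 2 weeks stood apart: log2(FPKM + 0.1) fell with transcript GC content by 1.21 per 10 percentage points relative to the average of all libraries, while the other mice of its group fell by 0.145 to 0.194. The same slope was 0.415 to 0.466 in wild type ears at 2 weeks, 0.0563 to 0.341 in those at 10 weeks and between -0.267 and -0.105 in 10-week-old *Socs3* cKO ears, so it moved with genotype at both ages. Library numbers in the titles do not interleave between the groups, so any library batch cannot be told apart from the group. *Socs3* itself was 9.71 to 10.3 FPKM in wild type ears and 1.25 to 12.6 FPKM in *Socs3* cKO at 2 weeks, and 2.02 to 4.81 FPKM against 29.8 to 47.7 FPKM at 10 weeks; a whole-gene value does not isolate the deleted bases and so does not check the deletion.

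The keratinocyte markers *Krt5*, *Krt14*, *Krt1*, *Krt10*, *Dsg3* and *Trp63* summed to 4750 to 11594 FPKM over all mice. Of these 6 markers, 1 was up-regulated in *Socs3* cKO at each age. Markers of other cells were present too. Over all genes tested, 14.4% were called at 2 weeks (7.19% lower) and 14.9% at 10 weeks (12.5% higher). At 2 weeks, 9 of 9 measured hair shaft and matrix markers were down-regulated in *Socs3* cKO. Their summed level was 472 to 783 FPKM in wild type ears and 7.30 to 11.4 FPKM in *Socs3* cKO. With sums that low in *Socs3* cKO, these markers could enter the test through the wild type alone, which favoured a lower result in advance. At 10 weeks 3 of them could be tested. Of the skeletal muscle markers, 4 of 6 were up-regulated at 2 weeks (448 to 675 FPKM against 1077 to 1614 FPKM). Of 5 neutrophil markers 3 could be tested at that age and 2 were up-regulated, with sums of 11.1 to 20.3 FPKM against 207 to 429 FPKM. None of the 5 was called at 10 weeks, when the sums were 22.3 to 71.9 FPKM against 16.9 to 1272 FPKM. At 10 weeks, 6 of 6 macrophage and monocyte markers and 3 of 5 endothelial markers were up-regulated, with sums of 63.8 to 93.2 FPKM against 172 to 234 FPKM and of 19.6 to 22.8 FPKM against 37.4 to 57.2 FPKM. The 6 fibroblast markers summed to 1230 to 1433 FPKM in wild type ears and 1023 to 1281 FPKM in *Socs3* cKO at 2 weeks, when none was called, and to 824 to 1006 FPKM and 1052 to 2589 FPKM at 10 weeks, when 2 rose. Cartilage markers summed to 204 to 331 FPKM in wild type ears at 2 weeks, against 73.3 to 142 FPKM, with 1 of 4 tested lower and *Matn1* at 0 in every mouse of that age. At 2 weeks 2 of 4 T cell markers rose (16.1 to 23.6 FPKM against 28.7 to 48.3 FPKM), and at 10 weeks 1 of 4 adipocyte markers did (23.1 to 43.2 FPKM against 43.6 to 96.8 FPKM). Of the endothelial markers 1 of 5 rose at 2 weeks, while their sums overlapped (56.7 to 66.9 FPKM against 51.7 to 64.3 FPKM). In no other list was a marker at 0 in every mouse of a group. The part of these cells in the results below was not tested. In bulk tissue, fewer cells of a type and less RNA per cell cannot be told apart.

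The ligands were measured first. *Tgfb1*, on chromosome 7 of mm9 from 26472021 to 26490096, encodes the TGF-β of immune cells and platelets. Its FPKM at 2 weeks was 20.1, 22.0, 21.2 and 18.7 in wild type ears and 0.532, 6.90, 8.35 and 6.07 in *Socs3* cKO. Every *Socs3* cKO mouse lay below every wild type mouse, and replicate 1 was far below the rest of its group. The log2(FC) was -2.40 (SE 0.75), and with limma and Benjamini-Hochberg adjustment the adjusted p of 0.0298 missed the threshold of 0.01. Without replicate 1 the log2(FC) was -1.52 and *Tgfb1* passed (adjusted p = 3.41e-05). At 10 weeks the values were 9.12, 11.1 and 9.07 in wild type ears and 9.40, 9.96, 11.7 and 10.8 in *Socs3* cKO. These groups overlapped, with a log2(FC) of 0.10 (SE 0.17, adjusted p = 0.663) that was negative when samples were rescaled by median of ratios (-0.16) or quantiles (-0.29).

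*Tgfb2* (chromosome 1, 188447065 to 188529871) and *Tgfb3* (chromosome 12, 87397694 to 87419991) encode the other TGF-β ligands, that of *Tgfb3* being best known from closure of the palate. *Tgfb2* was 7.76, 7.44, 7.93 and 7.34 FPKM in wild type ears at 2 weeks and 2.33, 6.59, 3.82 and 4.69 FPKM in *Socs3* cKO. The groups did not overlap, and the log2(FC) of -0.88 (SE 0.29, adjusted p = 0.0335) did not pass. By 10 weeks it was 4.44, 7.53 and 4.28 FPKM in wild type ears and 9.66, 7.49, 8.35 and 8.23 FPKM in *Socs3* cKO, overlapping only through wild type replicate 2 (log2(FC) 0.67, SE 0.23, adjusted p = 0.0456). *Tgfb3* was the most abundant TGF-β transcript in every mouse. Its FPKM at 2 weeks was 27.4, 29.6, 32.7 and 28.5 in wild type ears and 3.63, 22.0, 13.8 and 12.3 in *Socs3* cKO, all lower (log2(FC) -1.44, SE 0.47, adjusted p = 0.0355). By 10 weeks it was 9.23, 20.0 and 10.5 in wild type ears and 27.2, 18.0, 26.5 and 25.9 in *Socs3* cKO. Here wild type replicate 2 lay above *Socs3* cKO replicate 2, and the log2(FC) of 0.94 (SE 0.28, adjusted p = 0.0237) did not pass. Without that wild type mouse, *Tgfb3* passed with a log2(FC) of 1.28 (adjusted p = 0.0024).

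The 3 TGF-β ligand genes are compared within a mouse as shares of their summed FPKM, given as a description with no test. The sum was 54.5 to 61.9 FPKM in wild type ears and 6.49 to 35.5 FPKM in *Socs3* cKO at 2 weeks, and 22.8 to 38.6 FPKM against 35.5 to 46.5 FPKM at 10 weeks. *Tgfb1* made up 34.3% to 37.3% of it in wild type ears and 8.20% to 32.2% in *Socs3* cKO at 2 weeks, with no overlap. Without *Socs3* cKO replicate 1 the lowest sum in that group was 23.0 FPKM and the lowest *Tgfb1* share 19.4%. At 10 weeks the *Tgfb1* share was 28.8% to 40.0% in wild type ears and 20.3% to 28.1% in *Socs3* cKO, again with no overlap, while the *Tgfb1* level itself overlapped. *Tgfb3* held 40.5% to 62.0% over all 15 mice. The transcripts differ in GC content (62.5% for *Tgfb1*, 47.5% for *Tgfb2* and 53.0% for *Tgfb3*). With the length and GC trend removed, their log2(FC) at 10 weeks was 0.51, 0.32 and 0.84, against 0.10, 0.67 and 0.94 as deposited. At 2 weeks it was -1.31, -0.85 and -0.98, against -2.40, -0.88 and -1.44. The part of the GC slope of the libraries in these shares was not tested.

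The activin subunit *Inhbb* (chromosome 1, 121312042 to 121318825, 2 exons), whose product forms activin B, had the widest range between group means. Its FPKM at 2 weeks was 13.9, 13.6, 13.3 and 13.3 in wild type ears and 0.927, 5.13, 4.48 and 2.89 in *Socs3* cKO. The wild type mice were nearly alike and every *Socs3* cKO mouse was lower, on average 4.65-fold on the log scale. *Inhbb* was the only one of the 9 tested members called at 2 weeks (log2(FC) -2.22, SE 0.46, adjusted p = 0.00752), against 14.4% of all 13524 genes tested called in either direction and 7.19% called lower. The call was close to the threshold: with each wild type mouse, or *Socs3* cKO replicate 3 or 4, left out in turn it missed, the highest adjusted p being 0.0252, with a log2(FC) of -2.50 to -1.71 over all 8 mice left out. When the trend of each library with transcript length and GC content was removed, its log2(FC) was -0.82 and it was not called. At 10 weeks *Inhbb* was 1.59, 2.65 and 1.58 FPKM in wild type ears and 4.95, 4.70, 2.47 and 3.35 FPKM in *Socs3* cKO. Only *Socs3* cKO replicate 3 fell within the wild type range, and the log2(FC) of 0.95 (SE 0.31, adjusted p = 0.0360) did not pass.

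*Inhba* (chromosome 13, 16103684 to 16119044), the subunit of activin A, was at most 1.32 FPKM. At 2 weeks it was 0.885, 0.589, 0.133 and 0.324 FPKM in wild type ears and 0.658, 1.32, 0.180 and 0.451 FPKM in *Socs3* cKO. These groups overlapped widely. By 10 weeks it was 0.0916, 0.320 and 0.0927 FPKM in wild type ears and 0.778, 1.14, 0.455 and 0.552 FPKM in *Socs3* cKO, without overlap. Fitted without the filter on low values, which tests 10 members, *Inhba* had a log2(FC) of 1.67 at 10 weeks (SE 0.41, adjusted p = 0.0333) and of 0.33 at 2 weeks (SE 0.63, adjusted p = 0.795), and neither passed. On the log2(FPKM + 0.1) scale such low values understate a fold. The ratio of *Inhba* to *Inhbb* FPKM was 0.0577 to 0.121 in wild type ears and 0.157 to 0.242 in *Socs3* cKO at 10 weeks, so *Inhbb* remained the more abundant subunit transcript in every mouse.

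**Figure D1:**
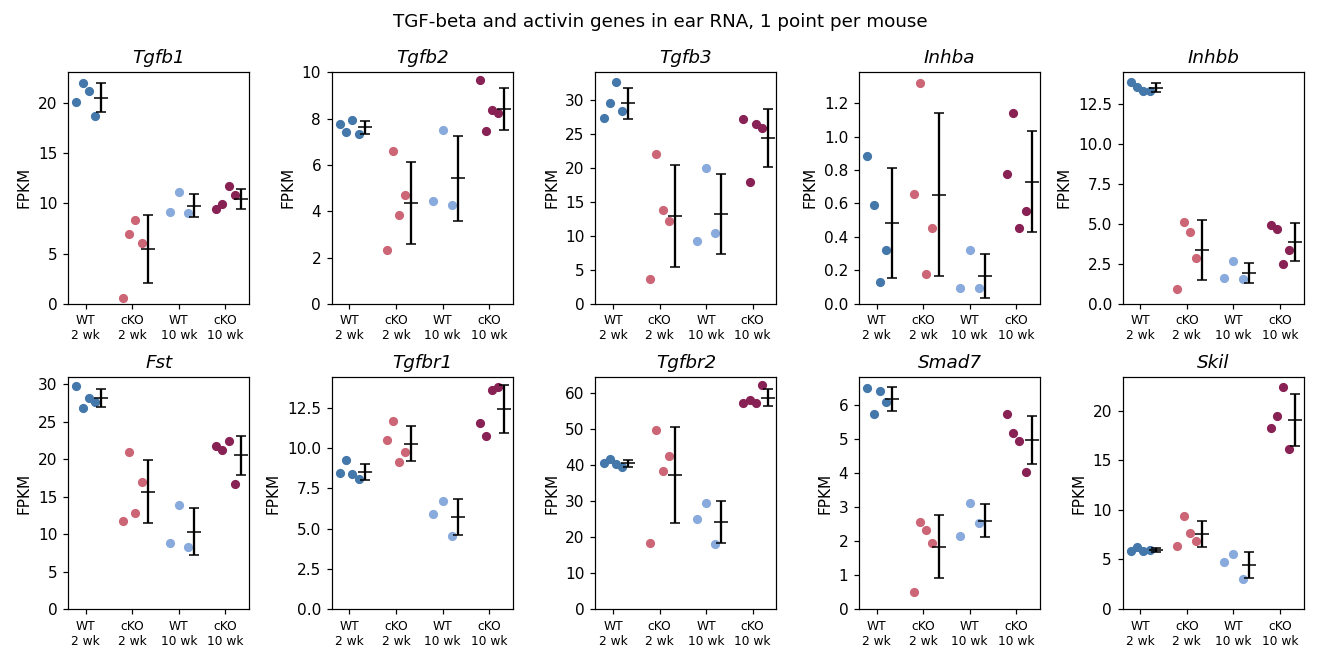
FPKM of the 10 genes in each of the 15 mice, with 1 panel per gene, a linear axis for FPKM, and the 4 groups by genotype and age along the horizontal axis; points are mice and bars give the mean and SD. *Inhbb* sits at 13.3 to 13.9 FPKM in wild type ears at 2 weeks and at or below 5.13 FPKM in every other group, and *Skil* sits at 16.1 to 22.4 FPKM in *Socs3* cKO at 10 weeks and at or below 9.34 FPKM elsewhere.

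Neither receptor passed the test at 2 weeks, and both passed at 10 weeks. *Tgfbr1* (chromosome 4, 47366094 to 47427803, 13 exons) encodes the type I receptor kinase. It was 8.44, 9.24, 8.42 and 8.08 FPKM in wild type ears at 2 weeks and 10.5, 11.7, 9.16 and 9.76 FPKM in *Socs3* cKO, overlapping in 1 mouse of each group (log2(FC) 0.26, SE 0.14, adjusted p = 0.135). The sign of that difference turned to -0.27 when the length and GC trend was removed. At 10 weeks *Tgfbr1* was 5.94, 6.71 and 4.54 FPKM in wild type ears and 11.6, 10.8, 13.6 and 13.8 FPKM in *Socs3* cKO. All *Socs3* cKO mice were higher, and *Tgfbr1* was up-regulated with a log2(FC) of 1.12 (SE 0.20, adjusted p = 0.0030). It missed the threshold without wild type replicate 1 or 3 (adjusted p = 0.0119 each) or *Socs3* cKO replicate 3 (adjusted p = 0.0107).

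*Tgfbr2* (chromosome 9, 115993415 to 116084383) encodes the type II receptor that binds the ligand first, and was the most abundant of the 10 genes in every mouse. It was 40.5, 41.7, 40.4 and 39.5 FPKM in wild type ears at 2 weeks and 18.5, 49.7, 38.3 and 42.5 FPKM in *Socs3* cKO. *Socs3* cKO replicate 1 was far below and replicates 2 and 4 above the wild type range, and the log2(FC) of -0.21 (SE 0.28, adjusted p = 0.543) turned to 0.094 without replicate 1 and to 0.076 with the length and GC trend removed. By 10 weeks it was 25.0, 29.6 and 18.1 FPKM in wild type ears and 57.3, 58.2, 57.2 and 62.3 FPKM in *Socs3* cKO. The *Socs3* cKO mice lay close together, above the highest wild type mouse by more than the range of the wild type (log2(FC) 1.30, SE 0.19, adjusted p = 0.00119). The ratio of *Tgfbr1* to *Tgfbr2* FPKM was 0.569 in *Socs3* cKO replicate 1 at 2 weeks, 0.229 to 0.239 in the other mice of that group and 0.185 to 0.250 in the other groups.

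Of the inhibitors, *Fst* (chromosome 13, 115242470 to 115249159) encodes follistatin. At 2 weeks it was 29.8, 26.9, 28.2 and 27.7 FPKM in wild type ears and 11.8, 21.0, 12.8 and 17.0 FPKM in *Socs3* cKO. All 4 of these mice were below the wild type. The adjusted p of 0.00887 was below 0.01, but the log2(FC) of -0.88 (SE 0.19) was within 1, so *Fst* was not called; it was called at -1.42 with the length and GC trend removed (adjusted p = 0.00531) and at -1.03 without *Socs3* cKO replicate 2. At 10 weeks *Fst* was 8.79, 13.9 and 8.35 FPKM in wild type ears and 21.7, 21.2, 22.5 and 16.7 FPKM in *Socs3* cKO. Here every *Socs3* cKO mouse was higher, and *Fst* passed just beyond the limit (log2(FC) 1.01, SE 0.22, adjusted p = 0.00669). It did not pass without wild type replicate 1 (0.91) or 3 (0.88), or without *Socs3* cKO replicate 1 (0.98), 2 (0.99) or 3 (0.96).

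*Smad7* (chromosome 18) encodes the inhibitory SMAD that blocks the type I receptor, and *Skil* (chromosome 3, 30993980 to 31021499) encodes SnoN, a co-repressor that binds SMADs in the nucleus. Both are known to be induced by TGF-β signaling. *Smad7* was 6.48, 5.73, 6.39 and 6.06 FPKM in wild type ears at 2 weeks and 0.491, 2.57, 2.30 and 1.94 FPKM in *Socs3* cKO. All *Socs3* cKO mice were lower, and the log2(FC) of -1.91 (SE 0.45) had an adjusted p of 0.0113, just above the threshold. Without *Socs3* cKO replicate 1 it passed at -1.41 (adjusted p = 6.35e-05), and without replicate 2 at -2.13. At 10 weeks *Smad7* was 2.15, 3.11 and 2.52 FPKM in wild type ears and 5.71, 5.17, 4.94 and 4.02 FPKM in *Socs3* cKO, without overlap (log2(FC) 0.92, SE 0.22, adjusted p = 0.0113, not passed; 1.05 and passed without wild type replicate 2, and 1.01 and passed without *Socs3* cKO replicate 4).

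*Skil* at 2 weeks was 5.82, 6.26, 5.82 and 5.99 FPKM in wild type ears and 6.39, 9.34, 7.69 and 6.81 FPKM in *Socs3* cKO. The groups did not overlap, but the log2(FC) of 0.32 (SE 0.16, adjusted p = 0.117) did not pass and was -0.20 with the length and GC trend removed. At 10 weeks *Skil* was 4.74, 5.54 and 3.02 FPKM in wild type ears and 18.3, 19.5, 22.4 and 16.1 FPKM in *Socs3* cKO. The lowest *Socs3* cKO mouse was far above the highest wild type mouse, and the log2(FC) of 2.11 (SE 0.23, adjusted p = 0.00033) was the highest of the 9 members at this age. *Skil* passed under all alternatives run at 10 weeks, with log2(FC) from 1.56 to 2.29. *Tgfbr2* passed under all but 1 of them, its log2(FC) being 0.81 with the length and GC trend removed.

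The inhibitors were also set against each other within a mouse, as a description with no test. The ratio of *Skil* to *Smad7* FPKM was 0.898 to 1.09 in wild type ears and 3.34 to 13.0 in *Socs3* cKO at 2 weeks, the highest value coming from *Socs3* cKO replicate 1 and the others being 3.34 to 3.64. By 10 weeks it was 1.20 to 2.21 in wild type ears and 3.20 to 4.53 in *Socs3* cKO. The groups did not overlap at either age. The transcripts differ in GC content (41.0% for *Skil* and 56.9% for *Smad7*). With the length and GC trend removed, log2(FC) at 2 weeks was -0.20 for *Skil* and -0.90 for *Smad7*, against 0.32 and -1.91 as deposited. At 10 weeks it was 1.56 and 0.86, against 2.11 and 0.92. The part of the GC slope of the libraries in this ratio was not tested. *Inhbb* to *Fst*, a ligand subunit against its binder, was 0.464 to 0.505 in wild type ears and 0.0788 to 0.350 in *Socs3* cKO at 2 weeks, without overlap (0.170 to 0.350 without *Socs3* cKO replicate 1), and 0.181 to 0.191 against 0.110 to 0.228 at 10 weeks, with overlap. These transcripts differ in GC content as well (60.9% for *Inhbb* and 45.9% for *Fst*), and with the length and GC trend removed *Inhbb* had the smaller fall at 2 weeks (log2(FC) -0.82, against -1.42 for *Fst*), so the direction of this ratio turned.

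**Figure D2:**
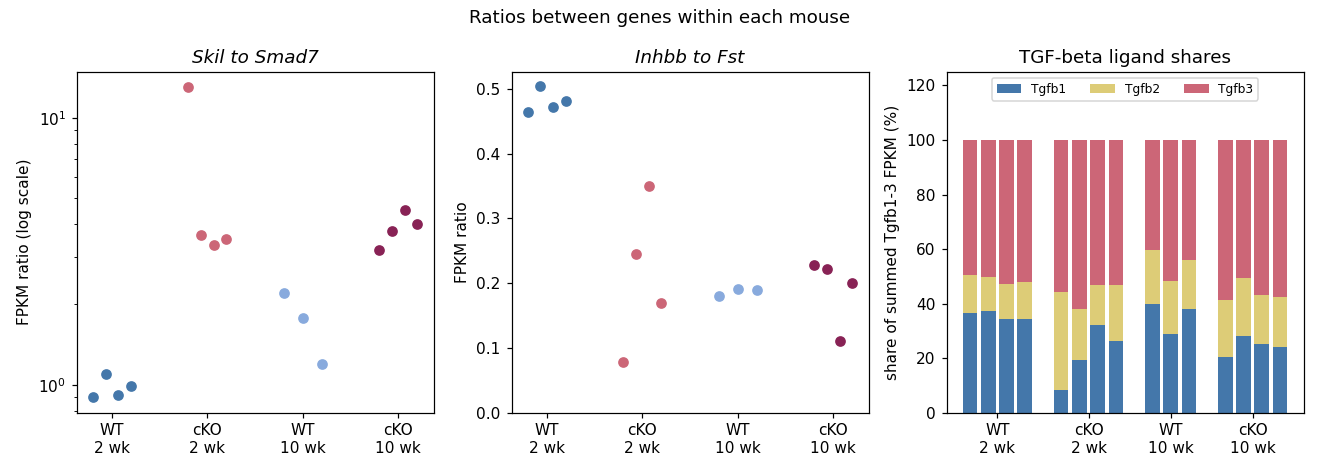
Left, the FPKM ratio of *Skil* to *Smad7* on a log axis, and middle, that of *Inhbb* to *Fst* on a linear axis, for the 4 groups by genotype and age with 1 point per mouse; right, the shares (%) of *Tgfb1*, *Tgfb2* and *Tgfb3* in their summed FPKM with 1 stacked bar per mouse. No test was made. *Skil* to *Smad7* lies at or below 2.21 in all wild type mice and at or above 3.20 in all *Socs3* cKO mice. The ratios and shares are not corrected for the GC slope of the libraries.

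Counted together at 2 weeks, 7 of the 9 tested members were lower and 2 were higher in *Socs3* cKO, and 7 did not overlap between the groups (6 lower and 1 higher), where 56.1% of all genes tested did not overlap, 33.2% being lower and 22.9% higher. The median log2(FC) of the members was -0.88, and that of all genes was -0.21. At 10 weeks all 9 tested members were higher, and for *Tgfb1* that sign turned under both other scalings; 4 of 9 were called, against 14.9% of 13105 genes in either direction and 12.5% called higher. Of the members, 5 of 9 did not overlap at 10 weeks, all higher, where the share of all genes was 42.3% in either direction and 31.2% higher. Their median log2(FC) was 0.95, and that of all genes was 0.31. Median-of-ratios scaling moved the median of all genes to -0.01 at 2 weeks and to 0.06 at 10 weeks, and quantile normalization moved it to 0.05 and -0.02. Of the 4 calls at 10 weeks, *Skil* (1.86 and 1.73) and *Tgfbr2* (1.04 and 1.06) passed under these 2 scalings, while *Tgfbr1* (0.86 and 0.71) and *Fst* (0.75 and 0.66) kept their direction and fell short of a log2(FC) of 1. Over all genes, 1638 were called higher and 319 lower at 10 weeks, and under quantile normalization 923 and 776.

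**Figure D3:**
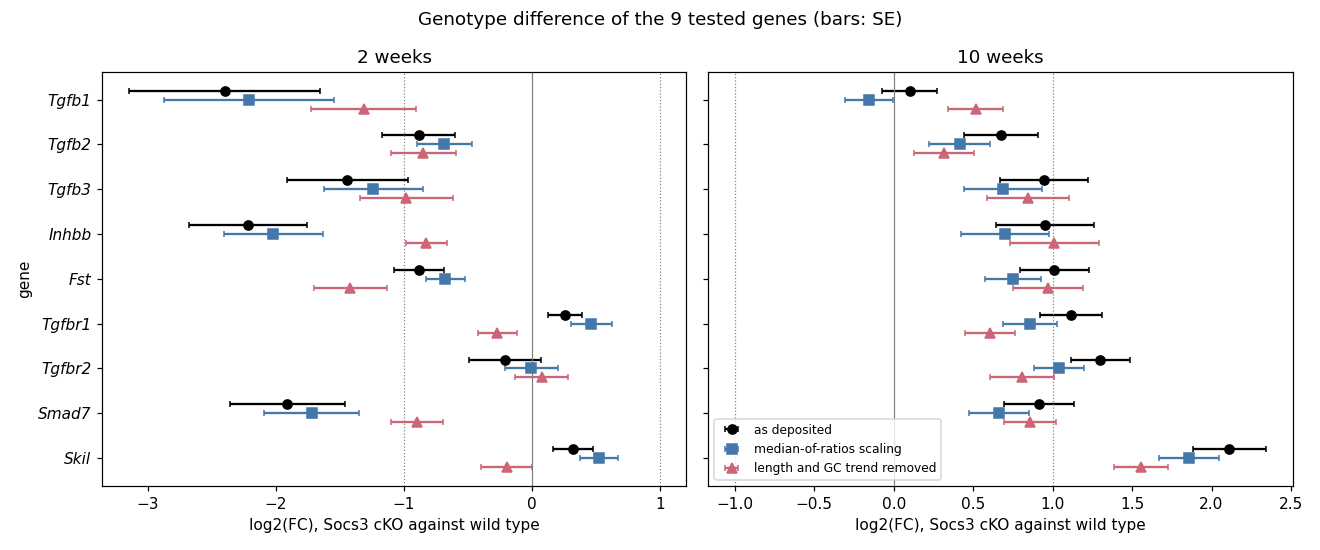
Log2(FC) of *Socs3* cKO against the wild type for the 9 tested genes at 2 weeks and at 10 weeks, with bars for the SE, from the values as deposited, after median-of-ratios scaling and after removal of the length and GC trend; dotted lines mark a log2(FC) of 1 in either direction. The 3 fits fall on the same side of 0 for *Tgfb2*, *Tgfb3*, *Inhbb*, *Fst* and *Smad7* at both ages, while *Tgfbr1* and *Skil* at 2 weeks change sign with the trend removed, *Tgfbr2* at 2 weeks does so too (0.076), and *Tgfb1* at 10 weeks changes sign with median-of-ratios scaling (-0.16).

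Members with GC-rich transcripts had the lowest log2(FC) at 2 weeks. GC was 62.5% of the longest coding transcript of *Tgfb1*, 60.9% of *Inhbb* and 56.9% of *Smad7*, the 3 lowest log2(FC) values at 2 weeks, and 41.0% of both *Tgfbr1* and *Skil*, the only members above 0. Over all tested genes, the median log2(FC) at 2 weeks was 0.43 in the least GC-rich of 4 equal bins, then -0.07 and -0.52, and -1.01 in the most GC-rich bin. At 10 weeks these medians were 0.53, 0.41, 0.27 and 0.03. *Tgfb1*, *Inhbb* and *Smad7* all fell in the last bin and lay below its median at 2 weeks. With the length and GC trend of each library removed, their log2(FC) was -1.31, -0.82 and -0.90 at 2 weeks, and the values of *Tgfb3*, *Tgfb2* and *Fst* were -0.98, -0.85 and -1.42. At 10 weeks *Skil* was called with the trend removed (1.56), and *Tgfbr1* (0.60), *Tgfbr2* (0.81) and *Fst* (0.97) were not. What the GC slope of the libraries has to do with these values was not tested.

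**Figure D4:**
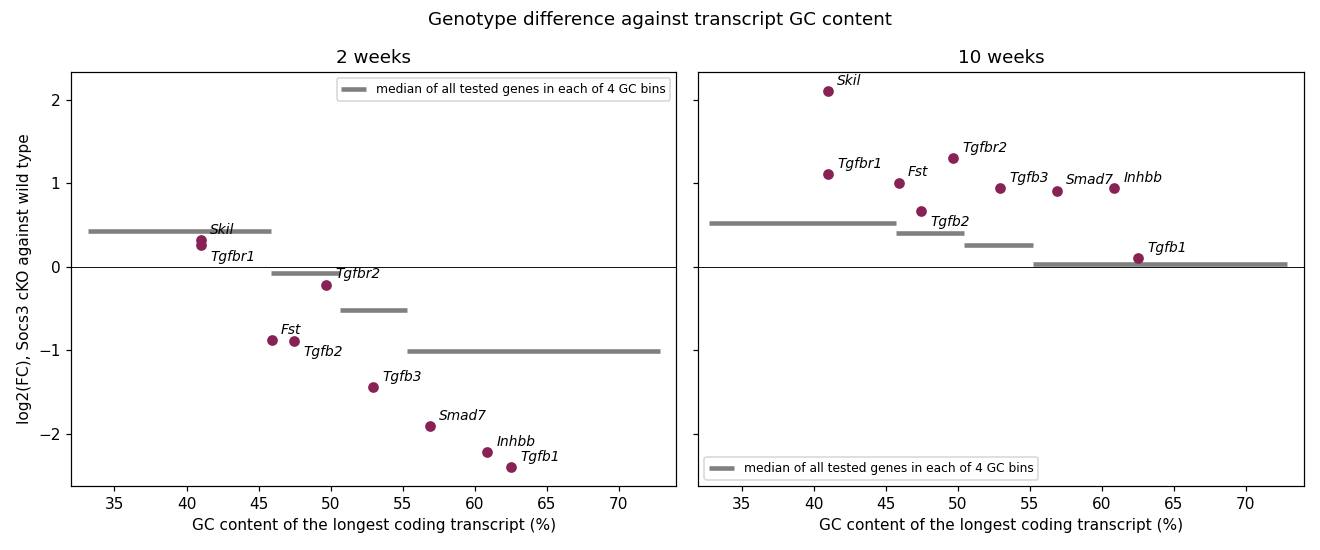
Log2(FC) of *Socs3* cKO against the wild type plotted against the GC content (%) of the longest coding transcript, for the 9 tested genes at 2 and at 10 weeks; grey bars give the median of all tested genes in each of 4 bins of GC content. At 2 weeks the bars step from 0.43 down to -1.01 and *Tgfb1*, *Inhbb* and *Smad7* lie below the last bar. At 10 weeks all 9 genes lie above the bar of their bin, *Tgfb1* by the least. Its log2(FC) was 0.10 against a bar at 0.03, and was negative after rescaling by median of ratios or quantiles.

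Whether the genotype difference changed with age was tested as an interaction over the 4 groups. It was called for 8 of 9 members, each time with a higher log2(FC) at 10 weeks, against 25.6% of the 13937 genes tested called in either direction and 18.5% of them called in that direction. Of the members that passed, the largest interaction terms were those of *Inhbb* (3.17, SE 0.60, adjusted p = 0.00134), *Smad7* (2.82, SE 0.53, adjusted p = 0.00134) and *Tgfb3* (2.38, SE 0.60, adjusted p = 0.00658). *Fst* (1.89, SE 0.30, adjusted p = 0.000431) and *Skil* (1.79, SE 0.28, adjusted p = 0.000406) had the smallest p. *Tgfb2* (1.56), *Tgfbr2* (1.51) and *Tgfbr1* (0.86) passed as well, and *Tgfb1* did not (2.50, SE 0.85, adjusted p = 0.0277). Without *Socs3* cKO replicate 1 at 2 weeks all 9 passed, and *Inhbb*, *Smad7*, *Fst* and *Skil* passed with each of the 15 mice left out in turn. The number called was 4 without wild type replicate 1 or 2 at 2 weeks or wild type replicate 1 or 3 at 10 weeks, and 5 without wild type replicate 3 or 4 at 2 weeks or *Socs3* cKO replicate 1 or 3 at 10 weeks. With median-of-ratios scaling *Tgfbr1* (0.39) did not pass, and 6 members passed with quantile normalization. The median of all genes was 0.55 and that of the members 1.89.

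The comparisons of age use the same libraries as those of genotype and are not independent of them. In the wild type all 9 tested members were lower at 10 than at 2 weeks, and 2 were called, against 25.5% of all genes in either direction and 19.4% called lower. *Inhbb* was 6.87-fold lower (log2(FC) -2.78, SE 0.44, adjusted p = 0.000226) and *Fst* was 2.78-fold lower (log2(FC) -1.47, SE 0.22, adjusted p = 0.000131). The groups did not overlap for 8 of 9 members, all lower, where 66.8% of all genes did not overlap in either direction and 49.5% were lower; the exception was *Tgfb2* (log2(FC) -0.53, adjusted p = 0.127), whose sign turned to 0.13 under quantile normalization, as did those of *Tgfbr1* (0.040) and *Skil* (0.20). Without *Socs3* cKO replicate 1 at 2 weeks, which enters through the shared spread, *Tgfb1* (-1.07), *Tgfb3* (-1.24) and *Smad7* (-1.23) also passed. In *Socs3* cKO all 9 were higher at 10 weeks and 1 was called, *Skil*, 2.51-fold higher (log2(FC) 1.33, SE 0.19, adjusted p = 0.000488), against 3.54% of all genes in either direction and 2.01% called higher. Of the members, 5 of 9 did not overlap between the ages in *Socs3* cKO, all higher at 10 weeks, where the share of all genes was 14.5% in either direction and 7.71% higher. *Smad7* (1.59, SE 0.36, adjusted p = 0.0125) missed the threshold and passed without *Socs3* cKO replicate 1 (1.09) or replicate 2 (1.82) at 2 weeks. *Tgfb2* passed without replicate 2 (1.25), and *Inhbb* (0.39, adjusted p = 0.535) turned to -0.12 without replicate 1.

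In the order of the group means, *Inhbb* was highest in wild type ears at 2 weeks (13.5 ± 0.254 FPKM, SD, n = 4), and its other groups, *Socs3* cKO at 10 weeks (3.87 ± 1.17), *Socs3* cKO at 2 weeks (3.36 ± 1.87) and the wild type at 10 weeks (1.94 ± 0.619, n = 3), each overlapped with the next. *Skil* was highest in *Socs3* cKO at 10 weeks (19.1 ± 2.61, n = 4), above *Socs3* cKO at 2 weeks (7.56 ± 1.31) and the wild type at 2 weeks (5.97 ± 0.207) and 10 weeks (4.43 ± 1.28, n = 3). The *Skil* values of neighbouring groups in this order did not overlap, although of these steps only that between the ages in *Socs3* cKO passed the test. *Tgfbr2* had its highest mean in *Socs3* cKO at 10 weeks (58.7 ± 2.41) and its lowest in wild type ears at 10 weeks (24.3 ± 5.76, n = 3).

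The rest of the pathway was read from 53 genes in 6 lists, all of which were in the tables. At 2 weeks 3 of the 47 tested were up-regulated and 9 down-regulated in *Socs3* cKO, and at 10 weeks 15 of 45 were up-regulated and 0 down-regulated. Over all genes tested, 14.4% were called at 2 weeks, 7.19% lower, and 14.9% at 10 weeks, 12.5% higher, and these shares are the background of each list below. With the length and GC trend removed, these counts were 1 and 7 at 2 weeks and 13 and 1 at 10 weeks. Under quantile normalization all 15 genes called at 10 weeks stayed above 0, and 10 stayed at a log2(FC) of 1 or more.

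Among genes for the latency and activation of TGF-β, *Itgb8*, the integrin subunit that holds latent TGF-β for release, was up-regulated at both ages. With wild type means below 1 FPKM, *Itgb8* entered the test only through the *Socs3* cKO mice, so a higher result was favoured in advance. Its fold is understated at such low values on the log2(FPKM + 0.1) scale. Its mean was 0.307 ± 0.0554 FPKM in wild type ears and 2.31 ± 0.140 FPKM in *Socs3* cKO at 2 weeks (SD, n = 4 each; log2(FC) 2.57, SE 0.18), and 0.107 ± 0.0873 FPKM (n = 3) and 1.67 ± 0.269 FPKM (n = 4) at 10 weeks (log2(FC) 3.18, SE 0.37). At 2 weeks the list had 1 of 10 higher and 1 lower, *Ltbp2*, which encodes a latent TGF-β binding protein (-2.05, or -0.80 with the length and GC trend removed). *Itgb6*, another integrin subunit of the list, was lower at both ages (-0.80 and -0.69) and was not called. With the length and GC trend removed *Itgb6* was -1.08 at both ages, and at 10 weeks it was the 1 pathway gene called lower in that fit. At 10 weeks 4 of 10 were higher: *Itgb8*, *Lrrc32*, which anchors latent TGF-β on the cell surface (2.00), the activator *Thbs1* (1.91) and *Ltbp2*, which had a log2(FC) of 1.38. The medians of the list were -1.13 and 0.73.

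Of 12 widely used target genes, 0 rose and 3 fell at 2 weeks: the collagen genes *Col1a1* (log2(FC) -3.06) and *Col1a2* (-1.72), and *Fn1*, which encodes fibronectin (-1.62). With the length and GC trend removed only *Col1a1* was called (-1.77), while *Col1a2* was -0.78 and *Fn1* -0.93. At 10 weeks 4 of 12 rose and 0 fell. Among them were *Lox*, a collagen cross-linking enzyme (1.57), the cell cycle inhibitor *Cdkn1a* (1.43) and *Ctgf*, which encodes a matrix-associated growth factor, and many of these genes also answer to other signals. The medians of the list were -0.32 and 0.71.

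Among 11 genes for SMADs, co-repressors and ubiquitin ligases, 3 fell at 2 weeks, *Pmepa1* (-2.40), *Tgif2* (-2.21) and *Tgif1* (-1.40), all of which restrain SMAD signaling. At 10 weeks 5 rose, with *Zfyve9*, which presents SMADs to the receptor (1.98), *Tgif2* (1.54) and *Tgif1* (1.45) highest, followed by *Smurf1* and *Smad3*. The medians of this list were -0.95 and 0.98. Of 8 other receptors and co-receptors, 6 could be tested, of which 1 rose at 2 weeks, the co-receptor *Cd109* (1.11), and 2 at 10 weeks, the activin receptor *Acvr2a* (1.35) and *Cd109* (1.05). With the length and GC trend removed none of these was called, *Cd109* being 0.94 at 2 weeks and 0.59 at 10 weeks and *Acvr2a* 0.82 at 10 weeks. The medians were -0.67 and 0.96. Of 8 other ligands, 4 could be tested at 2 weeks, when *Gdf11* (-2.20) and *Inha*, the inhibin alpha subunit (-1.96), fell. *Gdf11* averaged 1.72 FPKM in wild type ears and 0.334 FPKM in *Socs3* cKO, so it entered the test only through the wild type. At 10 weeks 2 could be tested and 0 passed in either direction. The medians were -0.97 and -0.61. Of 4 other extracellular binders, 1 rose at 2 weeks, the proteoglycan *Dcn* (1.24, or 0.12 with the length and GC trend removed), and 0 passed at 10 weeks, with medians of -0.33 and 0.73.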

How the data were processed

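Ear RNA of 15 mice was analysed, grouped by the sample labels; other mice of the study were not analysed here. The authors made single-end reads of 50 bases, placed on mm9 by TopHat2 2.1.0, and the submitters' processing notes also name Cufflinks. The deposited values are FPKM per gene and library. The authors tested genes with edgeR on counts; FPKM are not counts, so that step was not repeated. Depth was estimated only, and no counting error could be derived.

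Values were analysed as log2(FPKM + 0.1). The limma package (version 3.58.1, R 4.3.3), letting the prior variance follow expression, tested all genes that reached an FPKM of 1 in 3 or more fitted samples, 2-sided, with Benjamini-Hochberg adjustment over all genes tested. Genotype was compared within each age on the groups concerned, and the interaction and age on all 4 groups. A call required an adjusted p below 0.01 and, except for the interaction, a |log2(FC)| of at least 1. The labels do not say that mice of a group came from separate litters, so p-values measure the spread between these samples. Alternatives were pseudocounts of 1 and 0.01, no filter, quantile normalization, median-of-ratios scaling, a replicate block, a constant prior variance, removal of each library's trend with length and GC content, other samples in the fit, and leaving out each mouse. The step was tested on simulated data.

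Named were the 10 members and up to 3 called genes of each pathway list with the largest |log2(FC)| at each age. For 3 members the 3 genes most like them were also named. Further called genes of a list (*Ltbp2* and *Ctgf* at 10 weeks, *Smurf1* and *Smad3*) were named after their values were seen. So was *Itgb6*, which was not called on the values as deposited. A further gene of the target list is not reported here. The members and lists were chosen with earlier results of these data known. Positions, transcript lengths and GC content came from the GENCODE M1 annotation of mm9, which held 19443 of the genes with a coding transcript, all 10 members among them. No member shares exon bases with another annotated gene. Python 3.11.15 with numpy 2.4.6, pandas 2.3.3, scipy 1.17.1 and matplotlib 3.10.9 was used.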

Additional observations from a re-analysis of the deposited data

Results flagged for a closer look

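*Tgfb1* in *Socs3* cKO replicate 1 at 2 weeks (0.532 FPKM) and *Tgfb3* in *Socs3* cKO replicate 2 at 10 weeks (18.0 FPKM) lay far below the other mice of their groups. Of the 30 groups of 4 mice examined, 2 had such a mouse, and chance gives about 1 in 20.

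The genotype difference differed between the ages by the interaction test in limma for 8 of 9 genes, each with a higher value at 10 weeks. Of all genes, 25.6% were called in either direction and 18.5% in that direction. The interaction was 1.56 for *Tgfb2*, 2.38 for *Tgfb3*, 3.17 for *Inhbb*, 1.89 for *Fst*, 0.86 for *Tgfbr1*, 1.51 for *Tgfbr2*, 2.82 for *Smad7* and 1.79 for *Skil*.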

How the results depend on the processing

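Of 936 values of single genes under the alternatives, 826 kept their direction and side of the threshold, 31 came to pass, 68 no longer passed and 11 reversed. At 2 weeks 1 member was called. The count was 2 with a pseudocount of 1 and with scaling by median of ratios or by quantiles, and 3 with all 4 groups in one fit. It was 0 with no filter and with the replicate block. In those fits limma gave 8 of 10 and 6 of 9 members an unadjusted p below 0.05. The share of all genes below 0.05 was not counted, so nothing about the members is read from these counts. Leaving out mice gave 0 to 4: 0 without any wild type mouse or *Socs3* cKO replicate 3 or 4, 3 without replicate 1 and 4 without replicate 2. At 10 weeks 4 were called, 2 with either scaling, 1 with the length and GC trend removed, and 2 to 6 with mice left out: 2 without wild type replicate 1 or 3 or *Socs3* cKO replicate 3, and 6 without wild type replicate 2. The interaction was called for 4 to 9 members with mice left out. With age in wild type ears, 5 were called instead of 2 on the 2 groups alone, and 2 to 5 with mice left out. With age in *Socs3* cKO, 2 were called instead of 1 with a pseudocount of 1, either scaling or the trend removed, and 1 to 3 with mice left out.

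Reversed values at 2 weeks were *Tgfbr1* (-0.27), *Tgfbr2* (0.076) and *Skil* (-0.20) with the trend removed and *Tgfbr2* (0.094) without *Socs3* cKO replicate 1, its range with mice left out being -0.38 to 0.094. At 10 weeks *Tgfb1* was -0.16 after scaling by median of ratios and -0.29 after that by quantiles. With age in wild type ears, quantile normalization gave *Tgfb2* 0.13, *Tgfbr1* 0.040 and *Skil* 0.20. With age in *Socs3* cKO, *Inhbb* was -0.11 with the trend removed and -0.12 without *Socs3* cKO replicate 1, its range with mice left out being -0.12 to 0.67. The cause was not tested. Deviations of same-numbered mice correlated at -0.041 to 0.135 at 2 weeks and -0.209 to 0.068 at 10 weeks. Those of mice with different numbers correlated at -0.144 to 0.078 and -0.241 to 0.170. These ranges show no clear pairing by replicate number, but 4 and 3 same-numbered pairs are too few to exclude it. With the replicate block, 3 members were called at 10 weeks and 7 for the interaction, *Tgfbr1* being lost from both. The FPKM values carry no counts, so the precision of low genes such as *Inhba* is unknown.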

Other observations

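For the 3 members with the widest range between group means, the genes with the most similar pattern were sought among 13928 genes by Pearson r of log2(FPKM + 0.1) over the 15 libraries, given as a description. The libraries share their group differences and GC slopes, which enter every such r. *Inhbb* was most like *Lrrn2* (0.984), *Cxcl14* (0.977) and *Lphn1* (0.975). *Cxcl14*, a chemokine gene, had means of 189 and 30.6 FPKM in wild type and *Socs3* cKO ears at 2 weeks, and of 23.0 and 36.6 FPKM at 10 weeks. *Tgfb1* was most like *Dazap1* (0.993), *Gnai2* (0.992) and *Vasp* (0.988). *Skil* was most like *Tiparp* (0.984), *Zc3h12c* (0.980) and *Errfi1* (0.979), the last an inhibitor of the EGF receptor, with means of 17.3 and 21.7 FPKM at 2 weeks and of 11.1 and 114 FPKM at 10 weeks.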
